A study of Cavia porcellus with 10 samples.

Results

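The genes described here are the interleukin-1 family and its receptors in the uterine cervix of the guinea pig. They were taken from the table by gene name, from a list of 10 symbols. Of the 10, 8 had a row among the 25028 genes of the deposited table, which are the ligands IL1A, IL1B and IL33, the antagonist IL1RN, the receptors IL1R1, IL1R2 and IL1RAP, and the protease CASP1. IL1RL1 and IL18 had no row under those names and were not analysed here. IL1A and IL1B carry a species suffix in the table and the other 6 are listed under the plain symbol. Of the 8 genes, 6 reached a mean of 3 TPM, the measure of relative transcript abundance used here, in at least 1 stage and entered the fit over 12645 genes, and IL1B and CASP1 did not.

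Cervical RNA was sequenced from 10 Hartley guinea pigs, all without a genetic alteration or drug treatment named in the labels. There were 3 non-pregnant females in estrus (NP), 3 females in mid-pregnancy (MT) and 4 females in late pregnancy but not in labor (LT). The pieces came mostly from the part of the cervix nearest the vagina, and pregnancies were dated after death from the size of the fetuses. The 8 genes were read in libraries of 18730665 to 27881572 reads counted on genes. TPM scales reads by gene length and to a fixed total per library, so levels of different genes can be set side by side within an animal, while a shift in abundant transcripts alters the share left for the rest.

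Interleukin-1 alpha and beta bind the receptor IL1R1, which signals together with the accessory protein IL1RAP through MYD88 toward NF-kappa-B and the MAP kinases. IL1RN is a natural antagonist that occupies IL1R1 without signaling, and IL1R2 is a decoy receptor that binds ligand without signaling. Interleukin-1 beta and interleukin-18 are made as inactive precursors that CASP1 cleaves within inflammasomes, whereas interleukin-1 alpha and IL33 are stored in barrier and other cells and can act as alarm signals after cell damage. In the cervix the family is best known for its part in the inflammatory events around birth.

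The 8 genes differed widely in level, and their order changed from NP to MT. In NP the means ran, from high to low, IL1R2, IL1A, IL1RN, IL33, IL1R1, IL1RAP, IL1B and CASP1. In MT the order was IL1R2, IL33, IL1R1, IL1RAP, IL1B, IL1RN, IL1A and CASP1. In LT it was IL1R2, IL33, IL1R1, IL1RAP, IL1RN, IL1A, IL1B and CASP1, so that the decoy receptor was the most abundant transcript of the group in every stage. Neighbors in these orders often overlapped between animals. This was seen in NP for IL1R2 with IL1A, IL1A with IL1RN and IL1RN with IL33. It was seen in MT for IL1B with IL1RN and IL1RN with IL1A, in LT for IL1RAP with IL1RN and IL1A with IL1B, and in all stages for IL1R1 with IL1RAP.

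From NP to MT, IL1A and IL1RN fell and IL1R2 rose, and from NP to LT the same genes were called in the same directions, whereas none of the 6 tested genes was called from MT to LT. The test was limma on log2(TPM + 1), adjusted by the Benjamini-Hochberg method over 12645 genes, and a gene was called at an adjusted P under 0.05. The 3 of 6 genes called from NP to MT stand beside 18.5% of all tested genes called (6.27% higher and 12.2% lower in MT), and the 3 of 6 from NP to LT beside 53.1%, of which 11.2% were higher and 41.9% lower in LT. Both counts include IL1A, which passed the filter through NP alone and could only be called as a fall. With edgeR on the counts, the same 3 members were called in both comparisons, beside 18.0% and 49.4% of all genes. Between MT and LT the count was 0 of 6, with 29.4% of all tested genes called, and 1 of the 6 (IL1RN) had an unadjusted P under 0.05, as did 43.3% of all tested genes. In this comparison edgeR called 0 of the 6, beside 29.0% of all genes, and DESeq2 called 1, beside 36.1%. The animals of the compared stages did not overlap for 3 of the 8 genes between NP and MT, for 1 between MT and LT and for 2 between NP and LT. The same was seen for 34.9%, 46.3% and 52.4% of all tested genes. The comparisons share animals, and fold changes stand against a median shift of all tested genes of -0.14, -0.16 and -0.28 from NP to MT, from MT to LT and from NP to LT.

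**Figure D1:**
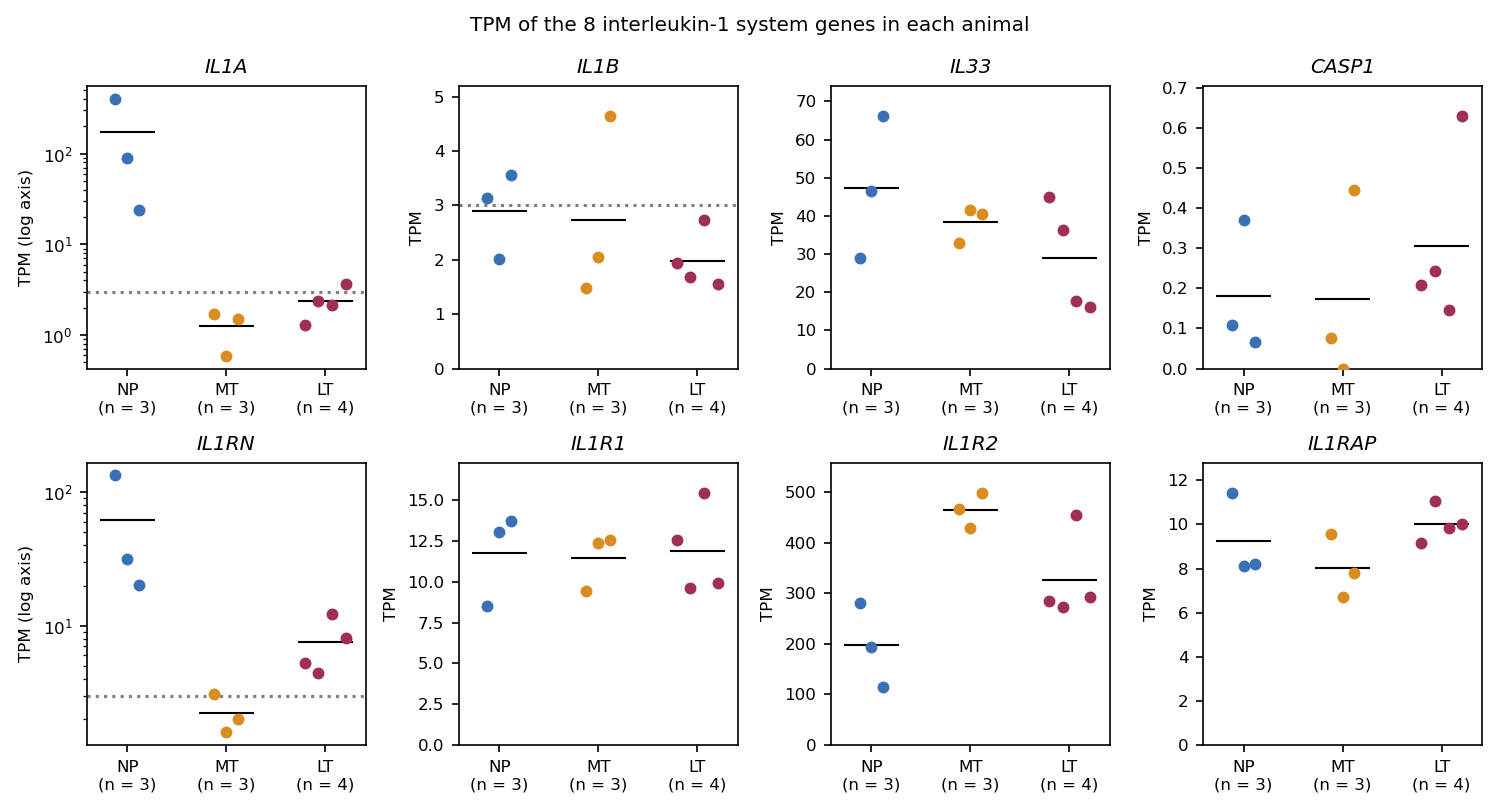
TPM of the 8 genes in each animal (points), with the stage mean (line) for NP (n = 3), MT (n = 3) and LT (n = 4); IL1A and IL1RN are on a log axis, and a dotted line marks 3 TPM in the panels of IL1A, IL1B and IL1RN. All 3 NP animals lie above every pregnant animal for IL1A and IL1RN, and all 3 MT animals lie above every NP animal for IL1R2.

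IL1A (ENSCPOG00000026158), which encodes interleukin-1 alpha, was measured at 403, 89.8 and 23.9 TPM in the 3 NP animals, at 1.71, 0.593 and 1.49 TPM in MT and at 1.29, 2.35, 2.17 and 3.70 TPM in LT. Every NP animal lay far above every pregnant animal, and the NP animals spread widely among themselves. The NP mean was 172 ± 202 TPM (SD, n = 3), that of MT was 1.27 ± 0.593 TPM (SD, n = 3) and that of LT was 2.38 ± 0.997 TPM (SD, n = 4). On the log2 scale the fit gave -5.46 from NP to MT (standard error 0.78, limma adjusted P = 0.00202) and -4.89 from NP to LT (standard error 0.73, limma adjusted P = 0.000603). Both calls were kept in 22 of 22 alternative settings, but their size depended on single NP animals and on the method. From NP to MT it was -4.43 without NP replicate 1 and -6.44 without NP replicate 3, and from NP to LT it was -3.86 and -5.87. On the counts, without the added 1 TPM, the fall from NP to MT was -7.04 with edgeR and -7.06 with DESeq2. Its fitted change from MT to LT was 0.57 (standard error 0.73, limma adjusted P = 0.585). The exact permutation test on square-root TPM gave P = 0.1 from NP to MT and P = 0.0286 from NP to LT. Each is the smallest value that these group sizes allow. The levels in pregnancy rested on few reads, 7 to 24 in each MT library and 22 to 63 in each LT library, against 323 to 6629 in NP. IL1A entered the fit only through its NP mean, so its call had to be in that direction if there was one. In these bulk samples, fewer cells of a type and less RNA per cell cannot be told apart.

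IL1B (ENSCPOG00000001975), which encodes interleukin-1 beta, was low in all stages. It was measured at 3.14, 2.02 and 3.56 TPM in NP, at 1.49, 2.06 and 4.64 TPM in MT and at 1.95, 1.68, 2.72 and 1.55 TPM in LT, on 35 to 150 reads per animal. The stages overlapped throughout, and the two-sided exact permutation test of the F statistic over the 3 stages on square-root TPM gave P = 0.493. In NP the mean of IL1A was 172 TPM against 2.91 TPM for IL1B. In MT the means were 1.27 TPM for IL1A and 2.73 TPM for IL1B, with IL1A above IL1B in MT replicate 1, and in LT they were 2.38 and 1.97 TPM.

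IL33 (ENSCPOG00000009330), a nuclear cytokine of epithelial, endothelial and stromal cells, was measured at 29.0, 46.5 and 66.1 TPM in NP, at 32.9, 41.5 and 40.5 TPM in MT and at 45.0, 36.4, 17.7 and 16.2 TPM in LT. LT replicates 3 and 4 were the lowest of all 10 animals, and the other LT animals lay within the range of NP. No change was called, and the fitted value from NP to LT was -0.74 (standard error 0.37, limma adjusted P = 0.114). Without NP replicate 1 the adjusted P was 0.0405 and without LT replicate 1 it was 0.0369, so this call depended on single animals. IL33 was the second most abundant of the 8 genes in MT and LT.

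IL1RN (ENSCPOG00000008700), the receptor antagonist, was measured at 134, 31.7 and 20.1 TPM in NP, at 3.11, 1.59 and 2.01 TPM in MT and at 5.27, 4.40, 12.2 and 8.13 TPM in LT. The 3 stages did not overlap with each other, with NP highest, LT between and MT lowest. The exact permutation test of the F statistic gave P = 0.000952, where 0.000476 is the smallest value it can give. The NP mean of 61.8 ± 62.6 TPM (SD, n = 3) compared with 2.24 ± 0.781 TPM (SD, n = 3) for MT and 7.50 ± 3.51 TPM (SD, n = 4) for LT. The fit gave -3.83 on the log2 scale from NP to MT (standard error 0.60, limma adjusted P = 0.00284) and -2.50 from NP to LT (standard error 0.56, limma adjusted P = 0.00435), and both calls were kept in 22 of 22 alternative settings. Without NP replicate 1 these values were -3.05 and -1.71, and without NP replicate 3 they were -4.39 and -3.05. With edgeR on the counts the value from NP to MT was -4.76. The exact permutation test on square-root TPM gave P = 0.1 from NP to MT and P = 0.0286 from NP to LT. Each is the smallest value that these group sizes allow.

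Whether IL1RN differed between MT and LT depended on the setting. The mean in LT was 3.35 times that in MT, and the fitted change was 1.33 (standard error 0.56, limma adjusted P = 0.0957). The exact permutation test gave P = 0.0571 on square-root TPM and P = 0.0286 on the log2 scale, the latter being the smallest it can give with 3 animals against 4. The adjusted P was below 0.05 in 4 of 22 alternatives, at 0.0152 with DESeq2 on the counts, at 0.0163 when only MT and LT were fitted and at 0.0110 without NP replicate 1, the NP animal with 134 TPM. The fourth was DESeq2 without a filter on low values, with 0.0154. The largest adjusted P over all alternatives was 0.529, on square-root TPM, the scale used in the study.

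IL1R1 (ENSCPOG00000014702), the signaling receptor, hardly differed in mean level between the 3 stages. It was measured at 8.52, 13.1 and 13.7 TPM in NP, at 9.42, 12.4 and 12.6 TPM in MT and at 12.5, 9.61, 15.4 and 9.90 TPM in LT. The highest animal was 1.81 times the lowest, the stages overlapped, and the means were 11.8, 11.5 and 11.9 TPM (exact permutation P = 0.97 for the F statistic). The fitted changes were -0.02, 0.03 and 0.02 from NP to MT, from MT to LT and from NP to LT, with standard errors of 0.22, 0.20 and 0.20. The sign from NP to MT turned under median-ratio scaling, with edgeR and with DESeq2, and in each comparison it turned when single animals were left out.

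IL1RAP (ENSCPOG00000008554), the accessory chain that IL1R1 needs for signaling, was measured at 11.4, 8.12 and 8.18 TPM in NP, at 9.59, 6.73 and 7.81 TPM in MT and at 9.17, 11.0, 9.83 and 10.02 TPM in LT. The stages overlapped, and the highest animal was 1.70 times the lowest. Its fitted change from MT to LT was 0.29 (standard error 0.15, limma adjusted P = 0.166), and the exact permutation test gave P = 0.0571.

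IL1R2 (ENSCPOG00000011327), the decoy receptor, was measured at 281, 195 and 115 TPM in NP, at 466, 430 and 498 TPM in MT and at 285, 273, 455 and 292 TPM in LT. All MT animals lay above all NP animals, and LT replicate 3 alone of the LT animals lay in the range of MT. The NP mean was 197 ± 83.2 TPM (SD, n = 3), the MT mean 465 ± 34.4 TPM (SD, n = 3) and the LT mean 326 ± 86.3 TPM (SD, n = 4). The rise from NP to MT was 1.32 on the log2 scale (standard error 0.29, limma adjusted P = 0.0135), or 2.36 times in the means. This call was kept in 21 of 22 alternatives and lost without MT replicate 3, at 0.0538. The exact permutation test on square-root TPM gave P = 0.1, the smallest value that 3 animals against 3 allow.

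From NP to LT the change of IL1R2 was 0.79 (standard error 0.27, limma adjusted P = 0.0340), while the exact permutation test on square-root TPM gave P = 0.0571. The animals of these stages overlapped, since NP replicate 1 with 281 TPM lay above LT replicate 2 with 273 TPM. The call was kept in 16 of 22 alternatives, and the largest adjusted P was 0.127, without NP replicate 3, where the change was 0.45. Without NP replicate 1 it was 1.09. It was also lost without NP replicate 2 (0.0712), LT replicate 3 (0.0835) or LT replicate 4 (0.0508), with NP and LT fitted alone (0.0631) and with a replicate block (0.0826). Between MT and LT the fitted change was -0.54 (standard error 0.27, limma adjusted P = 0.159), and it passed only when MT and LT were fitted alone, at 0.0475.

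CASP1 (ENSCPOG00000026333), the protease that matures interleukin-1 beta, was close to the limit of detection. It was measured at 0.109, 0.371 and 0.0661 TPM in NP, at 0.0765, 0 and 0.446 TPM in MT and at 0.209, 0.244, 0.146 and 0.630 TPM in LT, which corresponds to 0 to 12 reads per animal. The animal without a read was MT replicate 2, where 3 reads, the limit that a count of 0 allows, would correspond to 0.227 TPM by counting error alone. Differences between stages were not detectable at this depth.

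**Figure D2:**
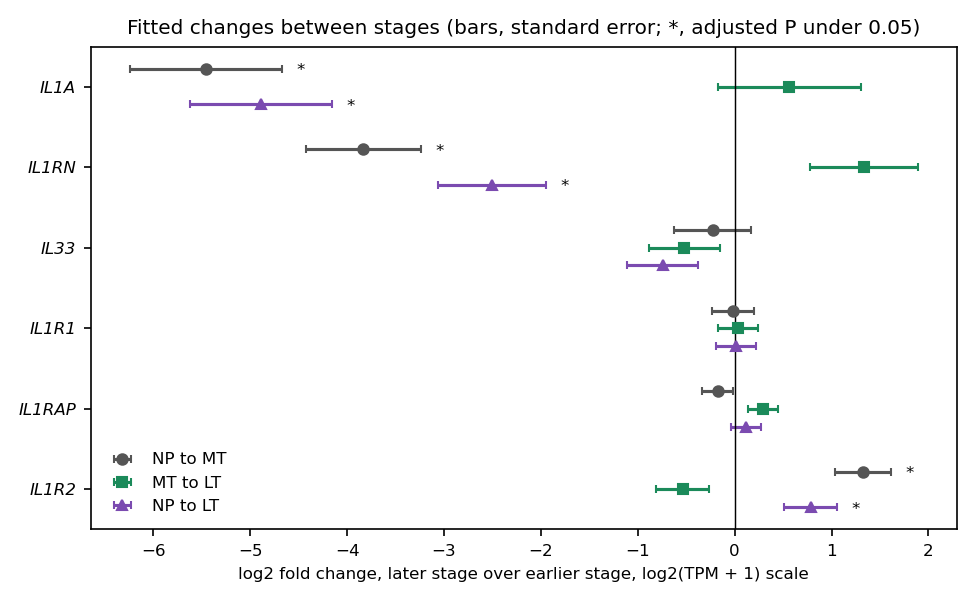
Fitted log2 fold changes (later over earlier stage, log2(TPM + 1) scale) of the 6 tested genes from NP to MT, from MT to LT and from NP to LT, with standard errors as bars and a star at an adjusted P under 0.05. IL1A and IL1RN lie furthest to the left at -5.46 and -3.83 from NP to MT, IL1R2 lies to the right at 1.32, and IL1R1 lies near 0 in each comparison.

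Ratios within an animal set the antagonist beside its ligands and the decoy beside the signaling receptor, with 0.1 TPM added to both sides. The ratio of IL1RN to the sum of IL1A and IL1B was 0.330, 0.346 and 0.733 in NP, 0.972, 0.615 and 0.338 in MT and 1.61, 1.09, 2.46 and 1.54 in LT. Antagonist transcripts were fewer than those of both ligands together in all 6 NP and MT animals, and more in all 4 LT animals. The MT ratios rested on few reads, 14 to 27 of IL1RN, 7 to 24 of IL1A and 35 to 150 of IL1B per library. Their counting error was not estimated, and the ratio of 0.972 in MT replicate 1 lies close to 1. The log2 difference was 1.45 from MT to LT (standard error 0.50) and 1.88 from NP to LT (standard error 0.44), each with an exact permutation P of 0.0286, the smallest possible here, and 0.0571 after Benjamini-Hochberg adjustment over the 6 ratio tests. From NP to MT, where IL1RN and IL1A fell and IL1B was not called, the ratio differed by 0.43 (standard error 0.58, exact permutation P = 0.6).

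The ratio of IL1R2 to IL1R1 was 32.6, 14.8 and 8.33 in NP, 48.9, 34.4 and 39.4 in MT and 22.6, 28.2, 29.3 and 29.2 in LT. Decoy transcripts outnumbered those of the signaling receptor in every animal, and all MT animals lay above all others. The log2 difference was 1.35 from NP to MT (standard error 0.59), with an exact permutation P of 0.1, the smallest value that 3 animals against 3 allow. It was -0.58 from MT to LT (standard error 0.17, exact permutation P = 0.0286, adjusted 0.0571) and 0.77 from NP to LT (standard error 0.58, exact permutation P = 0.229). The size of both differences from NP depended on single NP animals. Without NP replicate 3 it was 0.88 from NP to MT and 0.31 from NP to LT, and without NP replicate 1 it was 1.87 and 1.29.

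**Figure D3:**
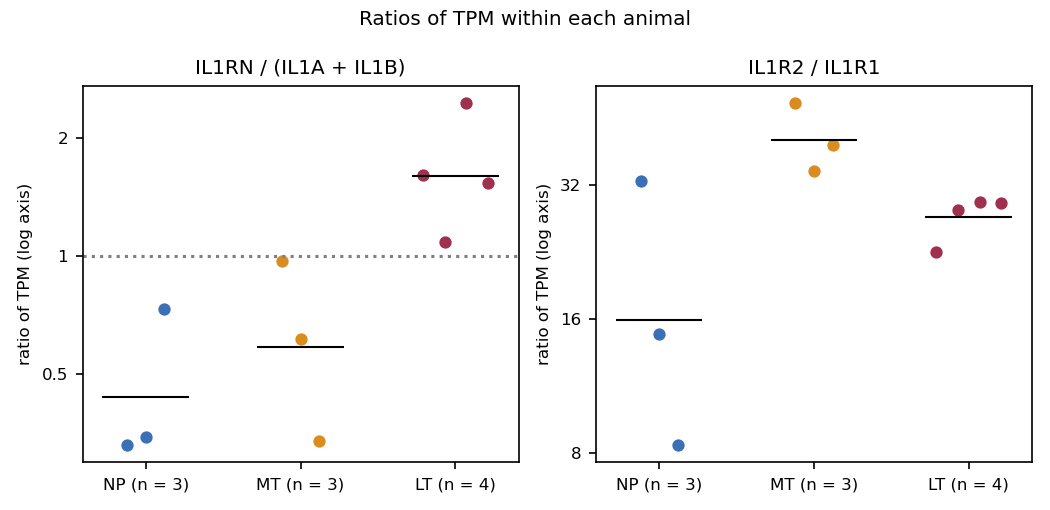
Ratio of TPM within each animal (points, log axis) with the geometric mean of each stage (line), for IL1RN over the sum of IL1A and IL1B on the left and IL1R2 over IL1R1 on the right; the dotted line marks a ratio of 1. The 4 LT animals lie between 1.09 and 2.46 on the left, above all NP and MT animals, and the 3 MT animals lie between 34.4 and 48.9 on the right.

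Some markers of squamous epithelium fell from NP to MT, as IL1A and IL1RN did, and most were not called. Of 29 such markers 18 had a row and 16 were tested, and from NP to MT 7 of these fell and none rose, beside 12.2% of all tested genes lower and 6.27% higher. The 7 were IVL, SPRR3, TGM1, CNFN, SBSN, RHCG and CRCT1, of which IVL, SPRR3 and TGM1 belong to the cornified envelope of mature squamous cells. All but TGM1 passed the filter through NP alone, so that a call could only be a fall, and the sum of the 7 is given as a description because they were picked by this call. Their summed level in NP was 58.2 to 929 TPM, in MT 4.73 to 8.76 TPM and in LT 7.78 to 12.2 TPM. The other 11 markers, which include the basal keratin KRT14 and the basal cell factor TP63, summed to 1507 to 5079, 593 to 2443 and 2598 to 4757 TPM in NP, MT and LT. KRT14 averaged 1571, 548 and 2237 TPM in NP, MT and LT, and S100A14 averaged 443, 283 and 622 TPM. From MT to LT KRT14 rose, the 1 of the 16 called, beside 6.73% of all tested genes (log2 fold change 2.50, limma adjusted P = 0.0184). Without MT replicate 1 its value was 3.28, and without MT replicate 2 it was 1.74 and the call was lost at 0.0648.

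Per 1000 TPM of the summed squamous markers, IL1A stood at 67.0, 46.8 and 15.2 TPM in NP, at 0.698, 0.991 and 1.46 TPM in MT and at 0.493, 0.609, 0.563 and 0.776 TPM in LT. IL1RN on the same basis stood at 22.3, 16.5 and 12.8 TPM in NP, at 1.27, 2.66 and 1.96 TPM in MT and at 2.02, 1.14, 3.16 and 1.70 TPM in LT. On this basis NP lay above all pregnant animals for both genes. The sum is dominated by markers that were not called from NP to MT, such as KRT14 and S100A14.

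The same ratio can be taken over the summed TPM of the 7 called markers, but these were picked for a fall from NP to MT, which by itself lowers the ratio in NP relative to MT. It is given as values only. IL1A stood at 0.434, 0.428 and 0.410 in NP, at 0.195, 0.125 and 0.218 in MT and at 0.130, 0.192, 0.279 and 0.313 in LT. IL1RN stood at 0.144, 0.151 and 0.344 in NP, at 0.355, 0.337 and 0.293 in MT and at 0.532, 0.360, 1.57 and 0.688 in LT. The part that the squamous epithelium had in the changes of IL1A and IL1RN was not tested.

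**Figure D4:**
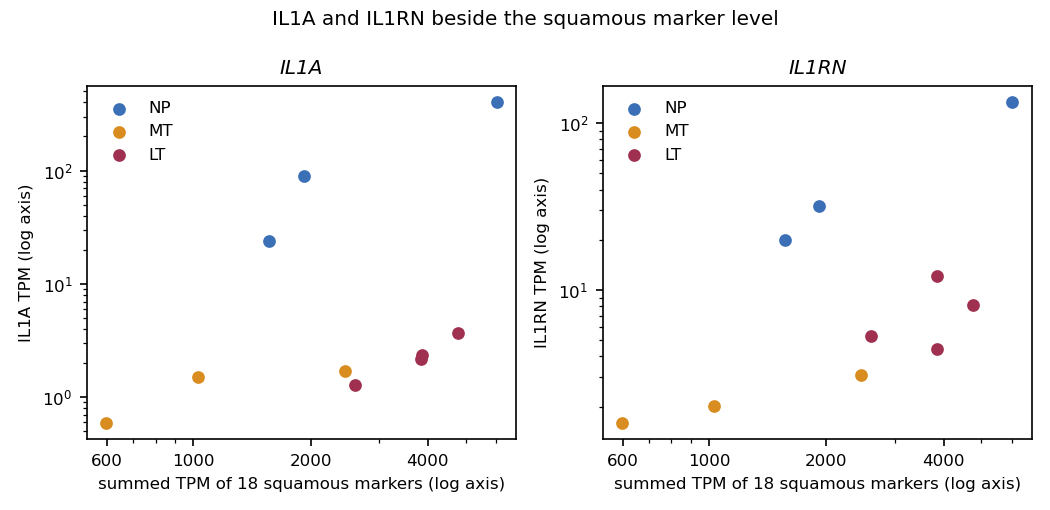
TPM of IL1A (left) and IL1RN (right) against the summed TPM of 18 squamous markers in each animal, both axes on a log scale. The 4 LT animals, at 2608 to 4769 TPM of squamous markers, lie below all 3 NP animals for both genes, and the NP animals range from 1566 to 6008 TPM of these markers, a sum made up mostly of markers that were not called from NP to MT.

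The genes whose levels most resembled each tested gene over the 10 animals were found by Pearson's r on log2(TPM + 1), which is given as a description, since all genes share the same animals and stages. For IL1A they were SBSN (r = 0.998), Mcpt3 (0.991) and RHCG (0.988), of which SBSN and RHCG are also on the squamous list. Mcpt3, by its name a mast cell protease gene, is on none of the marker lists. For IL1RN they were the airway and squamous protease gene TMPRSS11D (0.986), the kallikrein KLK8 (0.985) and A5H026 (0.972). The closest to IL1R2 were SCUBE2 (0.946), PLTP (0.945) and FAM65C (0.939), and to IL33 WDR86 (0.973), FAM132A (0.969) and RGS10 (0.960). IL1RAP was closest to SYTL1 (0.981), the squamous list gene S100A14 (0.967) and TBC1D2 (0.955). IL1R1, whose stage means hardly differed, reached at most 0.918 with PRMT6, followed by CSGALNACT1 (0.888) and WDR25 (0.884).

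Of 6 other ligands of the family, 3 had a row, and they were low. IL36A, an epithelial ligand, was measured at 14.7, 3.68 and 0.546 TPM in NP, on 164, 30 and 5 reads, and had no read in any of the 7 pregnant animals, where 3 reads, the limit that a count of 0 allows, correspond to 0.241 to 0.379 TPM. It was the 1 of the 3 that was tested, entered the fit only through NP, and its fall from NP to MT had a limma adjusted P of 0.0389, which was lost in 16 of 21 alternatives, among them edgeR at 0.0854 and DESeq2 at 0.0610. IL36RN, the antagonist of the interleukin-36 receptor, averaged 1.01 TPM in NP with 1 read in all pregnant animals together, and IL1F10 was seen with 7 reads in NP replicate 1 alone. Their receptor chain IL1RL2 averaged 2.66, 0.393 and 0.468 TPM in the 3 stages, which is below the threshold of 3 TPM in each stage.

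Of the other receptors and binding proteins, 5 of 7 had a row and 2 were tested. IL18BP, the secreted inhibitor of interleukin-18, had a mean of 10.2 ± 5.51 TPM (SD, n = 3) for NP, of 2.94 ± 0.639 TPM (SD, n = 3) for MT and of 2.78 ± 1.06 TPM (SD, n = 4) for LT. It passed the filter through NP alone, so a call could only be a fall, and it fell from NP to MT by 1.39 on the log2 scale (standard error 0.39, limma adjusted P = 0.0334), and this call was lost in 6 of 22 alternatives, among them NP replicate 2, NP replicate 3 or any MT animal left out, with 0.118 without MT replicate 3. SIGIRR, an inhibitory receptor of the family, averaged 21.5, 26.8 and 13.1 TPM in NP, MT and LT and fell from MT to LT by 1.03 on the log2 scale (standard error 0.22, limma adjusted P = 0.00901), with the call kept in 22 of 22 alternatives. IL1RAPL2 averaged 0.259, 2.66 and 0.860 TPM and was below the filter.

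Of 20 genes of the inflammasome and of ligand processing, 10 had a row and 8 were tested, and from NP to MT 1 fell and none rose, beside 18.5% of all tested genes called. The one was PANX1, a membrane channel, which averaged 10.7 ± 0.692 TPM (SD, n = 3) in NP and 5.87 ± 1.29 TPM (SD, n = 3) in MT (log2 fold change -0.78, limma adjusted P = 0.00776). Between MT and LT none was called, beside 29.4% of all tested genes, with 1 under median-ratio scaling, beside 29.4%, and 1 with edgeR, beside 29.0%. The calpains, which can process the precursor of interleukin-1 alpha, were the most abundant of the list, with means over all animals of 364 TPM for CAPNS1, 141 TPM for CAPN2 and 129 TPM for CAPN1. From NP to LT 1 gene rose and 3 fell, beside 53.1% of all tested genes called, while under median-ratio scaling and with edgeR 3 rose and 1 fell. The balance of all tested genes moved as well, from 11.2% higher and 41.9% lower to 26.3% and 23.4% under median-ratio scaling and to 23.6% and 25.8% with edgeR.

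Of 37 genes of interleukin-1 receptor signaling 35 were tested. From NP to MT 1 rose and 7 fell, beside 6.27% of all tested genes higher and 12.2% lower, and the list's median was -0.16 against -0.14 for all genes. NFKBIA, the inhibitor of NF-kappa-B, rose from 97.3 ± 9.61 TPM (SD, n = 3) to 203 ± 36.4 TPM (SD, n = 3), with a log2 fold change of 1.04 (limma adjusted P = 0.00764). The ribonuclease ZC3H12A, which degrades cytokine transcripts, fell by 1.62 on the log2 scale (limma adjusted P = 0.00262), and the NF-kappa-B cofactor NFKBIZ fell by 1.32 (limma adjusted P = 0.00223). These 3 calls were kept in 22 of 22 alternatives.

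Into LT, 2 genes of signaling rose and 8 fell, beside 6.73% of all tested genes higher and 22.7% lower. FOS, a subunit of the AP-1 transcription factor, rose from 45.5 ± 15.2 TPM (SD, n = 3) to 132 ± 40.2 TPM (SD, n = 4), with a log2 fold change of 1.51 (limma adjusted P = 0.00667). REL fell by 0.63 on the log2 scale (limma adjusted P = 0.00664) and the adaptor TAB2 by 0.60 (limma adjusted P = 0.00413). RELA, the main transactivating subunit of NF-kappa-B, fell by 0.38 (limma adjusted P = 0.0140), which was lost under median-ratio scaling at 0.0699 and with edgeR at 0.0568, and also without MT replicate 2 at 0.0617. TNIP1 averaged 123, 100.2 and 88.9 TPM in NP, MT and LT and was not called from NP to MT or from MT to LT. With median-ratio scaling 5 genes rose and 4 fell from MT to LT, beside 14.6% and 14.8% of all tested genes, and with edgeR 4 rose and 4 fell, beside 13.4% and 15.6%. From NP to LT 3 rose and 20 fell, beside 11.2% and 41.9%. These became 7 and 8 under median-ratio scaling, beside 26.3% and 23.4%, and 7 and 9 with edgeR, beside 23.6% and 25.8%. From NP to MT the counts became 2 and 4, beside 10.9% and 7.15%, or 2 and 6, beside 10.1% and 7.98%.

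Genes known to respond to interleukin-1 moved in both directions. Of 39 listed, 27 had a row and 19 were tested, and from NP to MT 3 rose and 6 fell, beside 6.27% of all tested genes higher and 12.2% lower. The list's median was -0.51 against -0.14 for all genes. Under median-ratio scaling and with edgeR 4 rose and 3 fell, beside 10.9% and 7.15% or 10.1% and 7.98% of all tested genes. The neutrophil attractant CXCL8 went from 122 ± 125 TPM (SD, n = 3) in NP to 5.26 ± 5.55 TPM (SD, n = 3) in MT, with a log2 fold change of -4.14 (limma adjusted P = 0.00670), and stood at 6.79 ± 3.57 TPM (SD, n = 4) in LT. The size of this fall depended on single animals, at -3.32 without NP replicate 1, -4.81 without NP replicate 3 and -4.83 without MT replicate 3. The collagenase MMP13, which passed the filter through NP alone and could only be called as a fall, went from 7.70 to 0.346 TPM (log2 fold change -2.42, limma adjusted P = 0.0180), lost without MT replicate 2 at 0.0562 and without MT replicate 3 at 0.0638. Without NP replicate 1 its log2 fold change was -1.80.

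PTX3 and VCAM1 rose from NP to MT. The pentraxin PTX3 averaged 1.65 ± 0.682, 11.5 ± 9.84 and 29.1 ± 4.38 TPM (SD) in NP, MT and LT, with adjusted P-values of 0.0178 and 0.0243 for the 2 steps by limma. Without MT replicate 1 the log2 fold change of PTX3 went from 1.96 to 1.35 in the first step and from 1.56 to 2.18 in the second. The first step of PTX3 was lost without NP replicate 2, NP replicate 3 or MT replicate 3, and the second without MT replicate 2, MT replicate 3 or LT replicate 3. The adhesion molecule VCAM1 averaged 27.9 ± 2.59, 78.0 ± 9.06 and 32.7 ± 19.6 TPM (SD), rising into MT at an adjusted P of 0.0472 and falling into LT at 0.0270. The second step of PTX3 had 0.0525 and that of VCAM1 0.0666 with edgeR, and the rise of VCAM1 was lost in 9 of 22 alternatives, among them each NP and each MT animal left out. The fall of VCAM1 was lost without LT replicate 3 and without each MT animal. PTGES, a prostaglandin E synthase, averaged 6.75, 2.59 and 5.92 TPM, and both its fall into MT (limma adjusted P = 0.00677) and its rise into LT (limma adjusted P = 0.00700) were kept in 22 of 22 alternatives.

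Between MT and LT 4 response genes rose and 1 fell, beside 6.73% of all tested genes higher and 22.7% lower, with a median of 0.50. Median-ratio scaling gave 7 and 1, beside 14.6% and 14.8%, and edgeR 6 and 0, beside 13.4% and 15.6%, so the share of all genes that rose was also larger under these scalings. IER3, an early response gene, averaged 87.1, 56.7 and 87.5 TPM, and its rise into LT had a limma adjusted P of 0.0448 that reached 0.171 without MT replicate 2 and was also lost without MT replicate 3 or without LT replicate 2, 3 or 4. SOD2, the mitochondrial superoxide dismutase, averaged 84.5, 61.3 and 59.4 TPM and was called in neither step.

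**Figure D5:**
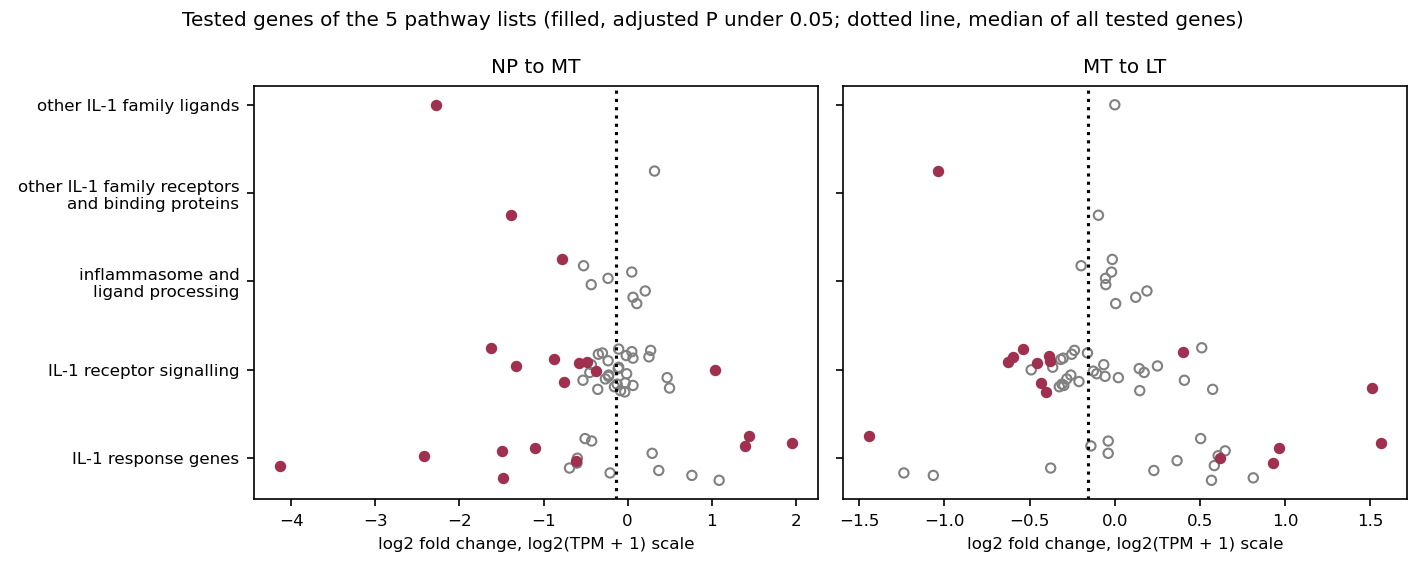
Fitted log2 fold changes (log2(TPM + 1) scale) of the tested genes of the 5 pathway lists from NP to MT (left) and from MT to LT (right), 1 point per gene, filled at an adjusted P under 0.05, with the median of all 12645 tested genes as a dotted line. The point furthest to the left on the left panel is CXCL8 at -4.14, and on the right panel FOS at 1.51 and PTX3 at 1.56 lie furthest to the right.

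Other cell types were followed by summed marker levels, whose part in the results above was not tested. Pan-leukocyte markers (LAPTM5 and ARHGDIB the highest) summed to 192 to 436, 197 to 234 and 152 to 262 TPM in NP, MT and LT, with none of 9 called from NP to MT, beside 18.5% of all tested genes. From NP to LT, where IL1A and IL1RN were also called lower, 5 of the 9 fell, beside 41.9%, and 2 of the 9 fell with edgeR, beside 25.8%. In the same comparison 11 of 11 endothelial markers fell (10 with edgeR) and 6 of 7 mast cell markers (6 with edgeR). Of 16 squamous markers 7 fell and 1 rose, with the same counts by edgeR. Of these 16, 6 passed the filter through NP alone, as did 1 of the 7 mast cell markers (HDC). Such genes could only be called as a fall. Of 10 glandular markers 8 rose (10 with edgeR), beside 11.2% of all tested genes higher (23.6% with edgeR), and of 11 macrophage markers 4 rose and 1 fell (5 and 1 with edgeR). Macrophage markers, with C1QB and TYROBP the highest, summed to 286 to 520, 239 to 281 and 366 to 640 TPM in NP, MT and LT, and 5 of 11 rose from MT to LT, beside 6.73% of all tested genes. The neutrophil list summed to 4513 to 9482, 11612 to 16647 and 16574 to 25906 TPM, nearly all of it from S100A9, S100A8 and LTF, which epithelia also express. Of its 4 tested genes 1 rose from NP to MT, as IL1R2 did, beside 6.27% of all tested genes, 2 rose from MT to LT, beside 6.73%, and 4 from NP to LT, beside 11.2%. These counts were the same under median-ratio scaling and with edgeR, where 10.9% and 10.1%, 14.6% and 13.4%, and 26.3% and 23.6% of all tested genes rose. CTSG had no read in any animal, and MPO and ELANE averaged below 0.5 TPM in each stage.

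Glandular epithelium markers, with AGR2 and KRT7 the highest, summed to 1066 to 1210, 3543 to 5892 and 8176 to 9711 TPM in NP, MT and LT, and 8 of 10 rose from NP to MT, as IL1R2 did, beside 6.27% of all tested genes. Endothelial markers (ENG and EMCN the highest) summed to 313 to 396, 254 to 315 and 142 to 219 TPM, and 9 of 11 fell from MT to LT, beside 22.7% of all tested genes. Smooth muscle markers (ACTG2 and ACTA2 the highest) summed to 9107 to 32058, 13458 to 20257 and 19812 to 40584 TPM, with LT replicates 3 and 4, the animals with the least IL33, at 39199 and 40584 TPM. Fibroblast markers (COL1A1 and COL1A2 the highest) summed to 7190 to 12871, 6398 to 11489 and 7073 to 10368 TPM, mast cell markers (KIT and HPGDS) to 100.1 to 163, 70.1 to 99.9 and 57.2 to 97.0 TPM, and lymphocyte markers (CD3E and NKG7) to 8.05 to 58.6, 15.5 to 37.7 and 6.06 to 16.5 TPM.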

How the data were processed

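Poly-A RNA of 10 cervices was sequenced strand-specifically with 1 × 75 bp reads. The authors aligned the reads with TopHat2 to cavPor3.69 and counted them with HTSeq-count 0.5.4p1, and deposited 1 table with the read count and the TPM value of each gene and animal. Both were used as deposited. The libraries hold 18730665 to 27881572 counted reads, and floors cover counting error only. Per animal and gene, TPM is the unit of the main analysis.

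Changes were tested with limma 3.58.1 in R 4.3.3 on log2(TPM + 1), in 1 fit over the 3 stages, for genes with a stage mean of at least 3 TPM. Fold changes on this scale understate those of low genes. The scripts were tested on simulated data. Single genes and ratios were compared by two-sided exact permutation tests. Alternatives used edgeR 4.0.16 and DESeq2 1.42.0 on the deposited counts, median-ratio scaling, square-root TPM (the scale of the study), other pseudocounts and filters, only 2 stages, a replicate block and each animal left out, and edgeR and DESeq2 without a filter were added after seeing the data. The members and the gene lists were chosen with earlier results of these data known. All members are named, then of each pathway list the 3 genes of highest mean and up to 3 with the largest called change without overlap in each of the steps NP to MT and MT to LT, the 2 highest genes of each marker list, and the 3 genes most like each tested member. IL1RL2, MPO, ELANE, CTSG, LTF and TP63, and squamous markers beyond the 2 highest, were named after their values were seen. Ratios with IL18 or IL1RL1 were not computed.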

Additional observations from a re-analysis of the deposited data

Results flagged for a closer look

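Within the LT group of 4 animals, a single animal lay apart from the other 3, by Dixon's criterion (a gap that takes up most of the group's range), in 5 of 35 sets of LT values examined, where chance gives about 5% of sets. IL1R2 was highest in LT replicate 3, at 455 TPM, and the other 3 LT animals lay between 273 and 292 TPM. The ratio of IL1R2 to IL1R1 was lowest in LT replicate 1, at 22.6, with the other 3 between 28.2 and 29.3. TNIP1 had 1 low LT value of 82.3 TPM and PTGES 1 high value of 6.53 TPM. For IL36RN the value of 0.0818 TPM is 1 read in 1 animal, with 0 reads in the other 3.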

How the results depend on the processing

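The calls of IL1A and IL1RN from NP to MT and from NP to LT held in each of 22 alternatives. From MT to LT the count of called members was 0, beside 29.4% of all tested genes. It was 1 with DESeq2 (36.1%), 2 when only MT and LT were fitted (38.8%), 1 without NP replicate 1 (42.1%; 0 to 1 over the animals left out) and 1 with DESeq2 without a filter (26.4%). Among the other lists, the other ligands called from NP to MT went from 1 to 0 under median-ratio scaling and to 0 with edgeR, beside 18.5%, 18.0% and 18.0% of all tested genes. The other receptors from NP to LT went from 2 to 1 with both, beside 53.1%, 49.7% and 49.4%, and the inflammasome genes from MT to LT from 0 to 1 with both, beside 29.4%, 29.4% and 29.0%. Under median-ratio scaling signaling genes called from NP to LT went from 23 to 15, with 53.1% and 49.7% of all tested genes called, and response genes from MT to LT from 5 to 8, with 29.4% called in both. The cause was not tested.

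With an animal left out, the log2 difference of the ratio of IL1RN to IL1A and IL1B ranged from 0.062 to 0.82 from NP to MT, from 1.05 to 1.82 from MT to LT and from 1.67 to 2.25 from NP to LT. That of IL1R2 to IL1R1 ranged from 0.88 to 1.87 from NP to MT, from -0.69 to -0.44 from MT to LT and from 0.31 to 1.29 from NP to LT. The exact permutation P cannot then fall below 0.0667 or 0.1, so it says nothing about stability.

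Signs turned only for changes that were not called. From NP to MT, IL1R1 became 0.11 under median-ratio scaling, 0.10 with edgeR, 0.11 with edgeR on DESeq2 size factors, 0.11 with DESeq2, and 0.13 and 0.12 with edgeR and DESeq2 without a filter. With an animal left out IL1R1 ranged from -0.22 to 0.10 from NP to MT, from -0.091 to 0.12 from MT to LT and from -0.18 to 0.13 from NP to LT. For IL33 the range from NP to MT was -0.53 to 0.050, the latter without NP replicate 3. Without a filter IL1B became 0.061 with edgeR and 0.049 with DESeq2, and CASP1 0.28 and 0.21.

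The replicate numbers name different animals. In their deviations from the stage means, same-numbered animals correlated from -0.287 to 0.254 and other pairs from -0.271 to 0.311. With 3 or 4 animals per stage, these correlations cannot show whether same-numbered animals shared a batch. With a replicate block 3 members were called from NP to MT, 0 from MT to LT and 2 from NP to LT, where IL1R2 had an adjusted P of 0.0826. Beside these stand 12.5%, 13.4% and 43.1% of all tested genes, against 18.5%, 29.4% and 53.1% without the block. Ratios of IL18BP to IL18 and of IL1RL1 to IL33 were not run. With 3 or 4 animals per stage and 7 to 24 reads of IL1A per MT animal, levels in pregnancy are known only coarsely.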
